A study of Mus musculus with 8 samples.

Results

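Regions of active chromatin with more H3K27ac signal in p30 than in p42 cells were defined here as 5-kb bins of the mouse genome. They were selected on measured coverage: a bin had to carry a peak flag in all 4 deposited interaction lists, and its log2 ratio of p42 over p30 coverage, centred on the median of all such bins, had to be -0.35 or less both in untreated cells (UT) and after lipopolysaccharide (LPS). Of 31321 bins with a peak flag in all 4 lists, 1026 met this rule and are called p30-high bins below. The share was 3.28% of the peak bins, while 6.23% (1952 bins) met the opposite rule of 0.35 or more in both treatments and serve as the p42-high bins for contrast. Because the ratio between p30 and p42 chose these bins, its values are descriptions, and the loops and contacts come from the same reads.

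The cells were HPC-7, a mouse haematopoietic progenitor line grown with stem cell factor, in a p30 version (HPC-7_p30) and a p42 version (HPC-7_p42), each untreated or exposed to LPS at 100 ng/mL for 2 h. Both isoforms were introduced by retroviral transduction into a line with very little CEBPA of its own, so p30 or p42 was expressed from the vector and not from the natural locus. The study's methods define its p30 and p42 HPC-7 lines as fusions to ERT2, which enter the nucleus with 4-hydroxytamoxifen, and describe constitutive lines apart; the HiChIP labels name neither form nor the drug. H3K27ac HiChIP was made as 2 replicates per group, 8 libraries in all, and the deposited data hold 1 list per group, taken here to pool both replicates. Every difference below therefore compares 4 lists, not conditions, and has no replicate error and no test.

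CEBPA is a leucine-zipper transcription factor that drives granulocyte and monocyte differentiation. The long isoform, p42, carries transactivation domains that the short isoform, p30, lacks in part, and mutations that leave p30 alone recur in acute myeloid leukaemia. H3K27ac marks active promoters and enhancers, and HiChIP pulls down such chromatin after ligating DNA ends that lie close together, so that the coverage of a bin (the read pairs that touch it) follows the mark, and read pairs between 2 bins (contacts) follow its looping. FitHiChIP calls a pair of bins a loop when its contacts exceed those expected from distance and coverage.

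The lists held between 14503330 and 18999991 modelled contacts and between 78591 and 158233 loops, with the highest number in p42 UT. The median coverage of peak bins was 3066 in p30 and 3749 in p42 without LPS and 2839 and 2466 with it, so before centring the p42 over p30 ratio of the typical bin stood at 0.27 (log2) in UT and at -0.22 after LPS. The start sites of all 10 progenitor genes checked (Kit, Cd34, Gata2, Tal1, Lyl1, Lmo2, Runx1, Fli1, Erg and Meis1) lay in peak bins of all 4 lists, and 0 of the 10 was a p30-high bin, where 1.91% of all start sites in peak bins were.

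Sequences are shown for promoters among the strongest p30-high start sites and for 200-base windows inside the strongest distal bins, because these are the regions the results turn on. All were read from the GRCm39 (mm39) reference genome, 5′ to 3′. The promoters are the 250 bases before the GENCODE start site: chr6:48722854-48723103 on the plus strand for Gimap5, chr16:96081662-96081911 on the plus strand for B3galt5 and chr4:43455130-43455379 on the minus strand for Cd72.
Gimap5: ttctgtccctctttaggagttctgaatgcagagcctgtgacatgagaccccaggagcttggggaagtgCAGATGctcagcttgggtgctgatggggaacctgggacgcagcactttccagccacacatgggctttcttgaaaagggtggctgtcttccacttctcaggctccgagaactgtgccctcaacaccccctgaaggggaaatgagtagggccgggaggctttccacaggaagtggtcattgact
B3galt5: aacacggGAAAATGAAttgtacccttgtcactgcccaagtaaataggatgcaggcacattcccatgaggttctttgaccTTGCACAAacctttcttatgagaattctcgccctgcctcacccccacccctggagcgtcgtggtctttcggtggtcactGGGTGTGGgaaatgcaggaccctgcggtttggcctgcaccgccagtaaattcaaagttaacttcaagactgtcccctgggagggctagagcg
Cd72: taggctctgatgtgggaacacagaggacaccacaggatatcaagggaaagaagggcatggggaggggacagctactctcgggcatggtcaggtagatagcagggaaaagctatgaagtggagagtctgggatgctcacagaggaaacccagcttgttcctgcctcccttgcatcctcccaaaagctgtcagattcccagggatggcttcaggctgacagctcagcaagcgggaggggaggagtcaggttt

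Capitals mark matches, on either strand, to 1 of 12 short motifs. The Gimap5 promoter held CAGATG, an E-box of the kind that TAL1 complexes bind, which 13.0% of all 21757 promoters of this length hold. The B3galt5 promoter held an IRF match (GAAANNGAA, in 7.56% of promoters), a CEBP match (TTGCNNAA, in 9.34%) and a CACCC box (CCACACCC, in 3.56%, here read on the other strand). The Cd72 promoter held none of the 12, which says only that these letters are not in this window.

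The windows were the ones with the most different motifs outside exons in each bin: chr11:24193051-24193250 in the bin 165 kb past the start of Bcl11a, chr2:26466631-26466830 in the Egfl7 bin and chr11:94277171-94277370 in the Abcc3 bin, all written on the plus strand.
Bcl11a bin: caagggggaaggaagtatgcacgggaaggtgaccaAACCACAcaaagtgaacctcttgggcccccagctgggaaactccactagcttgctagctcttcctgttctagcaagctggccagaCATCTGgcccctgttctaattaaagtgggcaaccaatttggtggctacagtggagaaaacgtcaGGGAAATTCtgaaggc
Egfl7 bin: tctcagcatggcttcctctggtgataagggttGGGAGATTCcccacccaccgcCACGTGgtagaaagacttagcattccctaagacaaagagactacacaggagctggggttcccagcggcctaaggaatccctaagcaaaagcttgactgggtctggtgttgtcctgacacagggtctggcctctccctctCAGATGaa
Abcc3 bin: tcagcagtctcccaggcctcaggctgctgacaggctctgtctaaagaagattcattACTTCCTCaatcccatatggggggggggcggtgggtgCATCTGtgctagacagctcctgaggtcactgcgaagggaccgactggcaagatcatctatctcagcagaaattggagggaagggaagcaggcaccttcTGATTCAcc

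The Bcl11a window held a RUNX match (TGTGGTT, in 5.59% of 783025 such windows of all peak bins), the TAL1-type E-box (15.2%) and an NF-kB match (GGGANNTTC, 2.20%). The Egfl7 window held the same NF-kB letters, the MYC E-box CACGTG (2.90%) and CAGATG. The Abcc3 window held a PU.1 match (GAGGAAGT, 1.40%), CAGATG and an AP-1 match (TGANTCA, 5.67%). These are letter matches in windows picked for having several, and no binding was measured here.

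Across the 1026 bins the centred log2 ratio of p42 over p30 ran from -1.44 to -0.35 in UT, with a median of -0.49, and from -1.65 to -0.35 after LPS, with a median of -0.53. Their median coverage was 4183.5 in p30 UT and 3476 in p42 UT, and 3762.5 in p30 LPS and 2179 in p42 LPS. The counting error of these ratios was small, with a median standard error of 0.033 in UT and 0.039 after LPS (log2), but it leaves out any spread between cultures. The bin nearest the threshold inside stood at -0.350064 and the nearest outside at -0.349882, so the edge of the set is a matter of the threshold.

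Of all peak bins, 11.9% were at -0.35 or less in UT (3733 bins) and 10.3% after LPS (3221 bins). The bins chosen in UT alone had a median ratio of -0.18 in the LPS lists, which that choice did not use, and 79.2% of them were below 0 there, against 50.0% of all peak bins. That median depended on the scale, being -0.014 when ratios were centred on the 25% of bins with most coverage and -0.62 when they were centred on modelled contacts. The bins chosen after LPS alone had a median of -0.21 in UT, and 76.7% were below 0. Only 27.5% of the UT choice and 31.9% of the LPS choice reached the threshold in the other treatment. Across all peak bins the ratios of both treatments were related with Pearson's r at 0.55 and Spearman's rho at 0.46; the points share 4 lists and, within a region, neighbouring bins.

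**Figure D1:**
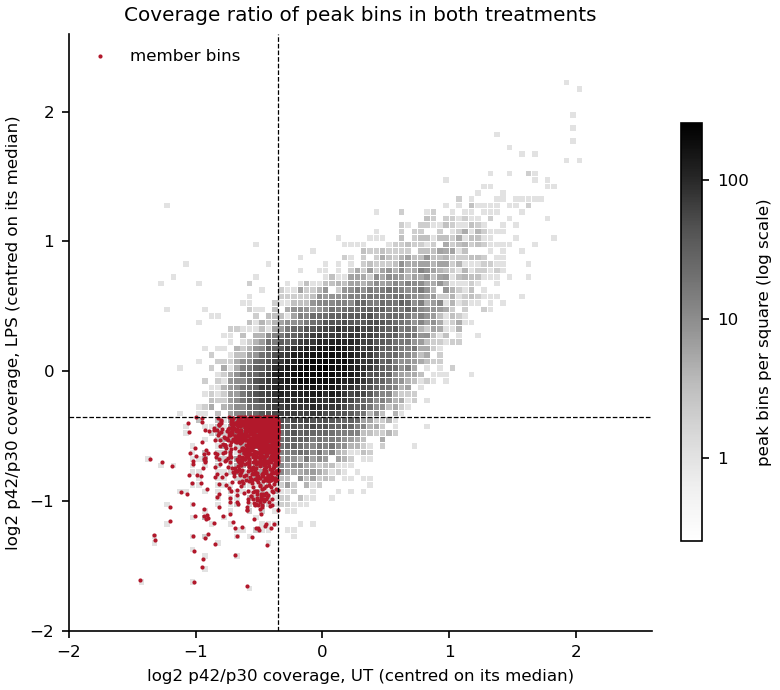
Centred log2 ratio of p42 over p30 coverage in UT (x axis) and after LPS (y axis) for 31321 peak bins, as grey squares shaded by the number of bins on a log scale, with the 1026 p30-high bins as red points and dashed lines at -0.35. The red points fill the lower left corner down to -1.44 in UT and -1.65 after LPS.

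The strongest p30-high bins carried no start site of a protein-coding gene. First among them was an intergenic bin at chr11:24190001-24195000, 165 kb past the start of Bcl11a, a zinc-finger repressor that silences fetal globin genes and is needed for B cells. Its coverage was 6031 in p30 UT, 2693 in p42 UT, 11442 in p30 LPS and 3225 in p42 LPS. Both p42 lists lay well below both p30 lists, and the centred excess in p30 was 2.71-fold in UT and 3.05-fold after LPS. Loops of the bin numbered 7 in UT and 16 after LPS in p30 cells, but 2 and 3 in p42 cells. A loop from it to the bin with the start sites of Bcl11a and A830031A19Rik was called in both p30 lists, with 10 contacts in UT and 14 after LPS, and in neither p42 list. The start bin of Bcl11a itself was not a peak bin of all 4 lists.

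The Bcl11a locus held 2 more p30-high bins. The bin at 150 kb had a coverage of 2899 in p30 UT, 1399 in p42 UT, 4348 in p30 LPS and 1556 in p42 LPS. The centred excess in p30 was 2.51-fold and 2.40-fold. The bin at 110 kb had log2 ratios of -1.05 in UT and -0.80 after LPS. The bin at 5 kb, a peak bin too, was at -0.37 in UT and at 0.26 after LPS, so the lower p42 coverage in both treatments lay in the far part of the locus. The bins at 150 and 165 kb were joined in 3 lists, with 31 contacts in p42 UT, 49 in p30 LPS and 30 in p42 LPS.

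The next distal bin lay at chr2:26465001-26470000, 6 kb before the main start of Egfl7, which encodes a secreted endothelial protein and hosts miR-126, and overlapped an exon of an Egfl7 transcript. Its coverage of 12738 in p30 UT was the highest among the 10 strongest distal bins in that list, against 6158 in p42 UT, 8175 in p30 LPS and 2845 in p42 LPS. The excess in p30 was 2.50-fold in UT and 2.47-fold after LPS, and both forms had less coverage after LPS. Loops to the start bin of Agpat2, an enzyme of phosphatidic acid synthesis, had 37 contacts in p30 UT, 23 in p42 UT and 28 in p30 LPS, and no loop was called in p42 LPS. The loop to the start bin of Sec16a was called in p30 UT (27 contacts), p42 UT (11) and p42 LPS (13) but not in p30 LPS.

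An intron bin of Abcc3, an export pump for conjugated organic anions, at chr11:94275001-94280000 had a coverage of 8511 in p30 UT, 4477 in p42 UT, 4968 in p30 LPS and 1922 in p42 LPS. The centred excess was 2.30-fold and 2.22-fold. An intron bin of Disc1, a scaffold protein, at chr8:125805001-125810000 had 4858, 2553, 6395 and 2656 in the same order. Both bins favoured p30 to a like degree, but the Abcc3 bin was lower after LPS and the Disc1 bin higher. The Disc1 bin was joined to another p30-high bin 10 kb away in all 4 lists, with 116 contacts in p30 UT, 51 in p42 UT, 149 in p30 LPS and 61 in p42 LPS.

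An intron bin of Dusp29, a dual-specificity phosphatase, had log2 ratios of -1.02 and -1.27. It was joined in all 4 lists to the start bin of the related phosphatase gene Dusp13b, 60 kb away, with 36 contacts in p30 UT, 29 in p42 UT, 28 in p30 LPS and 11 in p42 LPS. An intron bin of Gnaz, a G protein alpha subunit found in platelets, stood at -1.02 in both treatments. A bin 21 kb before Mtmr9, a catalytically inactive myotubularin, stood at -1.01 and -1.38 and was joined to the Mtmr9 start bin in all 4 lists, with 59 contacts in p30 UT, 53 in p42 UT, 49 in p30 LPS and 27 in p42 LPS.

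The Slc35d3 locus was p30-high at its promoter and at both of its named distal bins. Slc35d3 is a nucleotide-sugar transporter family member needed for platelet dense granules. The bin at 35 kb, chr10:19690001-19695000, had a coverage of 7650 in p30 UT, 4572 in p42 UT, 7757 in p30 LPS and 2161 in p42 LPS. The excess in p30 was 2.02-fold in UT and 3.08-fold after LPS. Coverage in p30 hardly moved with LPS, while that in p42 was less than in UT (centred log2 changes of 0.13 and -0.48). It was joined to the Slc35d3 start bin in all 4 lists, with 26 contacts in p30 UT, 21 in p42 UT, 32 in p30 LPS and 12 in p42 LPS. The start bin itself had 2471, 1763, 2050 and 1097 reads of coverage in that order, with ratios of -0.76 and -0.68. Of the 10 strongest distal bins, 5 had more loops in p30 UT than in p42 UT and 3 had fewer, while 6.81% of all peak bins had more in p30 UT. After LPS 9 of 10 had more in p30, beside 50.5% of all peak bins. No start site was joined in all 4 lists to 7 of the 10.

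**Figure D2:**
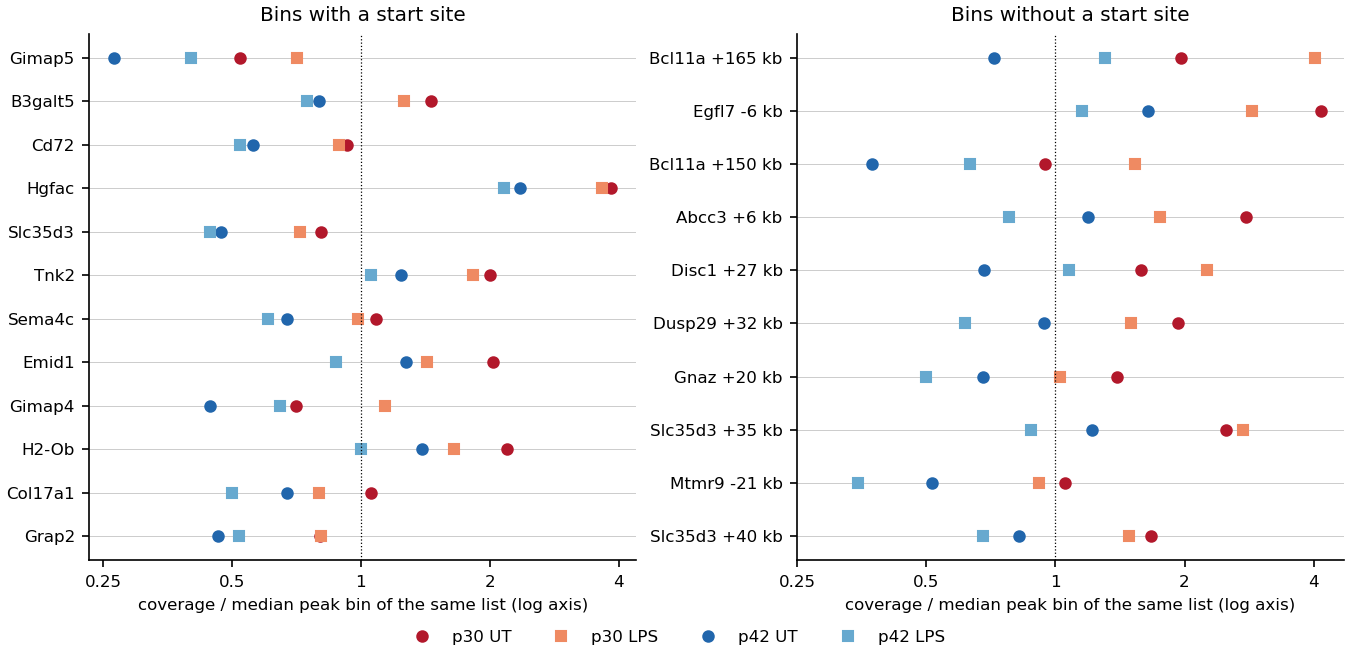
Coverage divided by the median peak bin of the same list (log axis) in the 4 lists, for the 12 strongest p30-high bins with a start site (left) and the 10 strongest without one (right). In each row both p30 points lie to the right of the p42 point of the same treatment, and the Bcl11a bin at 165 kb after LPS reaches the highest value among the p30 LPS points.

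Of 21757 protein-coding genes, 6232 had their start site in a peak bin of all 4 lists, and 119 of these (1.91%) lay in 115 p30-high bins. The p42-high bins held the start sites of 208 genes (3.34%). The gene with the strongest ratio in the weaker of both treatments was Gimap5, of the family of immune-associated GTPases that support lymphocyte survival. Its start bin had a low coverage of 1599 in p30 UT, 996 in p42 UT, 2015 in p30 LPS and 988 in p42 LPS. The p30 excess was 1.94-fold and 1.75-fold. Gimap4 had 2165, 1667, 3237 and 1598 in the same order, with ratios of -0.65 and -0.80.

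The Gimap genes form 1 cluster on chromosome 6. Of 8 Gimap genes, 5 had start sites in peak bins, and 3 of these (Gimap4, Gimap5 and Gimap8) were p30-high. Gimap3 was at -0.92 in UT and at -0.26 after LPS, and Gimap9 at -0.066 and -0.46, so each was past the threshold in 1 treatment. The Gimap5 and Gimap8 start bins, 100 kb apart, were joined in 3 lists, with 13 contacts in p30 UT, 8 in p42 UT and 16 in p30 LPS. Gimap4 and Gimap9 were joined in all 4 lists, with 47, 44, 59 and 49 contacts in p30 UT, p42 UT, p30 LPS and p42 LPS.

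B3galt5, a galactosyltransferase of glycan synthesis, had a coverage of 4459 in p30 UT, 2994 in p42 UT, 3586 in p30 LPS and 1849 in p42 LPS, with ratios of -0.85 and -0.74. All 7 peak bins of its run were p30-high. Cd72, an inhibitory co-receptor of B cells, had 2840, 2094, 2522 and 1290, with ratios of -0.71 and -0.75. The Cd72 bin was joined in 3 lists to the start bin of Sit1, a transmembrane adaptor of lymphocytes, which was p30-high too, with 23 contacts in p30 UT, 18 in p42 UT and 16 in p30 LPS.

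Hgfac, the protease that activates hepatocyte growth factor, had the highest coverage among the 12 strongest start bins, at 11765 in p30 UT, 8813 in p42 UT, 10389 in p30 LPS and 5319 in p42 LPS, with ratios of -0.69 and -0.75. Loops joined it in all 4 lists to the start bins of Msantd1, 125 kb away, and of Grk4 and Nop14, 380 kb away. Contacts with Msantd1 numbered 37 in p30 UT and 22, 22 and 20 in p42 UT, p30 LPS and p42 LPS. Tnk2, a non-receptor tyrosine kinase, had 6150, 4654, 5183 and 2609 reads of coverage, with ratios of -0.68 and -0.77.

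The other strong start bins were those of Sema4c, a semaphorin (ratios -0.67 and -0.68), Emid1, an extracellular matrix protein (-0.65 and -0.69), H2-Ob (-0.64 and -0.70), Col17a1, a hemidesmosome collagen (-0.63 and -0.66), and Grap2, an adaptor downstream of immune receptors (-0.77 and -0.62). The list was ranked by ratio alone. More loops were called in p30 than in p42 at 4 of the 12 start bins in UT and at 10 of 12 after LPS, beside the same 6.81% and 50.5% of all peak bins.

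Genes were also read from 13 lists of pathways and cell types. The class II MHC list, whose products present peptides to T helper cells, had 8 start sites in peak bins, of which 3 were p30-high and 0 p42-high (37.5% against 1.91% of all genes); its median ratios were -0.19 in UT and -0.29 after LPS, beside 0.085 and -0.11 over all start sites. H2-Ob, a subunit of the H2-O protein that restrains peptide loading, had a coverage of 6726 in p30 UT, 5207 in p42 UT, 4675 in p30 LPS and 2466 in p42 LPS. Its partner subunit H2-Oa had 6209, 5770, 5512 and 3326, with ratios of -0.38 and -0.51. H2-Eb1, a class II beta chain, had 2589, 2350, 2468 and 1594, with ratios of -0.41 in both. H2-Oa no longer met the rule on modelled contacts (-0.19 in UT) or within GC classes (-0.20 in UT). H2-Eb1 no longer met it on modelled contacts (-0.22 in UT), on the 25% of bins with most coverage (-0.29 after LPS) or within coverage classes (-0.33 in UT). H2-Ob met it on all 4 scales, so the 3 of 8 became 1 of 8 on modelled contacts. H2-DMa, a chain of the loading protein that H2-O binds, was at -0.093 and -0.082.

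The class II genes lie together on chromosome 17 and share neighbours, so the 3 are not independent. The H2-Oa and H2-Ob start bins, 145 kb apart, were joined in both p30 lists, with 11 and 10 contacts, and in neither p42 list. The same held for H2-Ob and H2-DMa, with 12 and 12 contacts, while H2-Eb1 was joined to H2-Aa in both p42 lists, with 29 and 25 contacts, and in neither p30 list. Loops called in 1 list alone were of both kinds. H2-Eb1 to Btnl2 and H2-Ob to Brd2 were called in p30 UT alone, H2-Ob to Psmb8 in p30 LPS alone, and H2-Eb1 to H2-Ea and H2-Ob to H2-DMb2 in p42 UT alone. Of all loops, 28.7% were called in p42 UT alone. Class II loci mark antigen-presenting cells. The other genes of that program, Cd74 and the class II activator Ciita, had no start site in a peak bin of all 4 lists, and neither did H2-Ab1. Of the lymphoid list, 3 of 32 genes had a start site in a peak bin, and 0 of these were p30-high; with the start sites of all transcripts Il2rb of that list was added. Whether other cells contributed was not tested.

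Zfpm1, the GATA1 partner FOG1 of erythroid and megakaryocyte cells, was the only p30-high gene of the erythroid list (1 of 8, with 1 p42-high) and of the megakaryocyte list (1 of 14, with 3 p42-high). The median ratios of the megakaryocyte list were 0.20 in UT and 0.036 after LPS. Its coverage was 6728 in p30 UT, 5615 in p42 UT, 4871 in p30 LPS and 2640 in p42 LPS, with ratios of -0.53 and -0.66. It no longer met the rule on modelled contacts (-0.34 in UT) or within GC classes (-0.29 in UT). The start site lay in a run of 8 p30-high bins and was joined to 2 of them in all 4 lists. No gene of the other 10 lists had a p30-high start site, a count of 0 that is near the background of 1.91% for lists of this size. Beside 3.34% of all start sites p42-high, the counts were as follows for granulocyte and monocyte genes (0 of 16, with 5 p42-high), NF-kB and inflammatory genes (0 of 26, with 4 p42-high), AP-1 and ATF factors (0 of 19, with 1), stem and progenitor genes (0 of 17, with 2), ribosomal protein genes (0 of 40), interferon-stimulated genes (0 of 9) and genes linked to p30 (0 of 7, with 2).

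p30-high bins came in clusters. Bins no more than 50 kb from the next formed 553 runs, of which 330 were single bins and 223 held 2 or more; the latter contained 696 bins (67.8%). There were 34 runs of 5 or more, with 225 bins. An adjacent p30-high bin was present for 514 of the 1026, while 832 had an adjacent peak bin. Read pairs and acetylated domains longer than 5 kb can touch neighbouring bins, so neighbours are not independent.

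The longest unbroken run lay in Irag1, which encodes a substrate of cGMP-dependent kinase that restrains calcium release. All 11 peak bins from chr7:110505001-110560000 were p30-high. Their summed coverage was 60753 in p30 UT, 45634 in p42 UT, 40916 in p30 LPS and 24119 in p42 LPS, and their ratios ran from -0.99 to -0.51 in UT and from -0.80 to -0.36 after LPS. The change after LPS, centred on the median of all peak bins, was below 0 in both forms in all 11, as it was in 27.1% of all peak bins. The Irag1 start bin was at -0.42 in UT and at -0.14 after LPS, outside the set. The start bin of Rnf141, a RING-finger gene nearby, was joined to 4 p30-high bins in all 4 lists and to 11 in any list, though its own ratio was 0.073 in UT and -0.57 after LPS.

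The run in 2900026A02Rik on chromosome 5 had 11 p30-high bins among 14 peak bins, with summed coverages of 61222 in p30 UT, 52948 in p42 UT, 42521 in p30 LPS and 23087 in p42 LPS. The centred change after LPS was again below 0 in both forms in all 11. The Tnk2 run (9 of 9 peak bins, median ratios -0.68 and -0.46) and the run in Ptprs, a receptor tyrosine phosphatase (8 of 8, -0.68 and -0.69), were unbroken. The Ptprs start bin itself was at -0.24 and -0.045.

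The Grap2 run held 10 p30-high bins among 14 peak bins over 180 kb, with Fam83f and Enthd1 beside Grap2, and its median ratios were -0.70 and -0.67. The run on chromosome 9 held 10 of 14 peak bins over 75 kb and the start sites of Hyal2 and Hyal3, of the hyaluronidase family, Naa80, an actin acetyltransferase, Ifrd2 and Sema3b, a secreted semaphorin. The Sema3b start bin had a coverage of 13205 in p30 UT, 10591 in p42 UT, 13461 in p30 LPS and 5503 in p42 LPS, with ratios of -0.59 and -1.07. Gnai2, an inhibitory G protein subunit in the same run, was at -0.11 and -0.44 and so not p30-high, but it was joined to 5 p30-high bins in all 4 lists, the most of any gene.

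**Figure D3:**
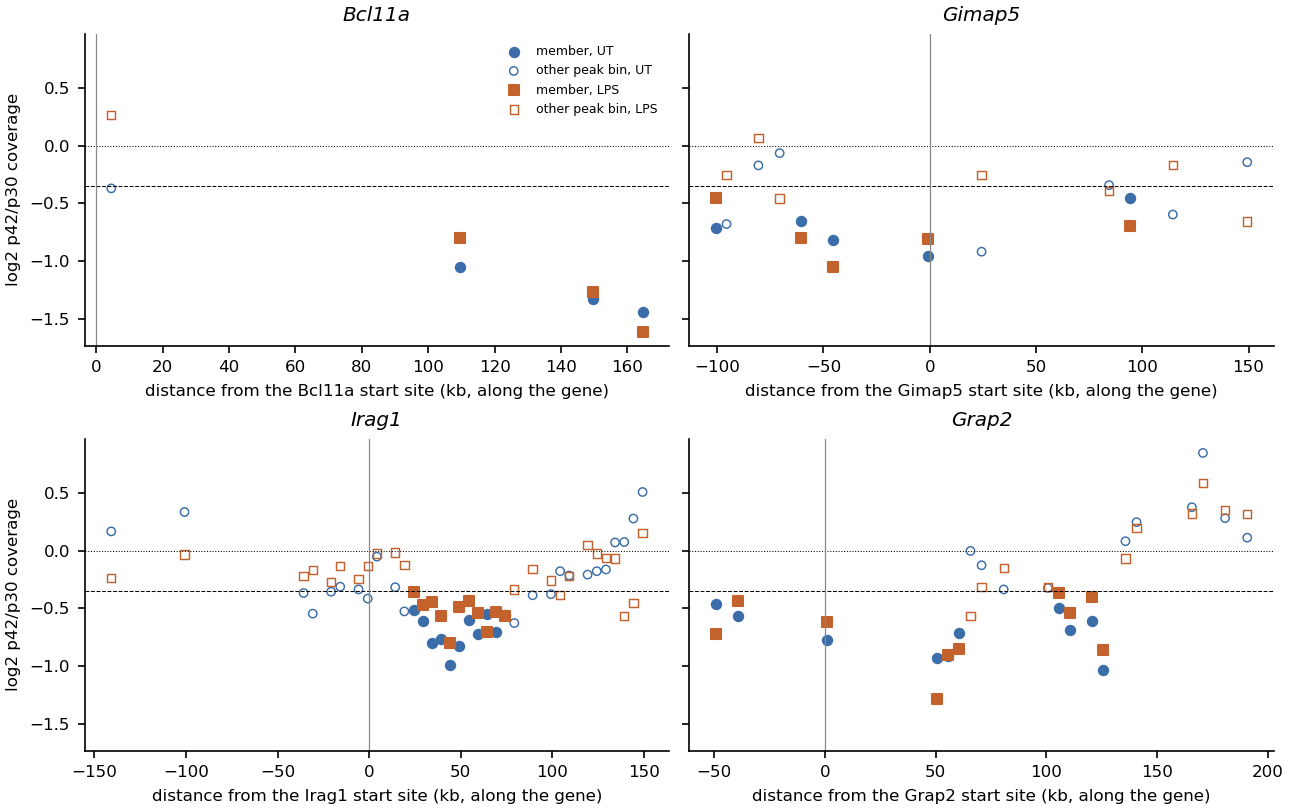
Centred log2 ratio of p42 over p30 coverage of peak bins against their distance from the start site (kb) at Bcl11a, Gimap5, Irag1 and Grap2, with p30-high bins filled, other peak bins open, UT as circles, LPS as squares and the dashed line at -0.35. At Irag1 the 11 filled bins form 1 block downstream of the start, and at Bcl11a the 3 filled bins lie 110 to 165 kb away.

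Around p30-high bins the ratio of other peak bins approached 0 with distance. Adjacent peak bins (5 kb) had medians of -0.44 in UT and -0.44 after LPS, and 46.6% were p30-high themselves. At 20 to 50 kb the medians were -0.23 and -0.14, with 11.7% p30-high, and at 200 to 500 kb they were -0.066 and -0.032, with 3.39%, close to the 3.28% of all peak bins. Bins without a peak flag within 100 kb had medians of -0.060 in UT and -0.080 after LPS (495 bins). Peak bins in that window that were not p30-high themselves had -0.15 and -0.085. The rule thus removed the lowest values from the peak bins but not from the others, which were also centred on their own median. The sizes of both shifts can therefore not be compared.

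Partners of loops stood apart from unjoined bins at the same distance in the LPS lists more than in UT. At 50 to 100 kb, peak bins joined to a p30-high bin in all 4 lists (363 pairs) had medians of -0.18 in UT and -0.23 after LPS, and 15.98% were p30-high. Peak bins at the same distance joined in no list (4442 pairs) had -0.13 and -0.052, and 5.27% were p30-high. At 20 to 50 kb joined bins stood at -0.27 after LPS against -0.087, but in UT at -0.19 against -0.23, the other way. Pairs share bins and loops are called from the same reads, so no test was made.

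**Figure D4:**
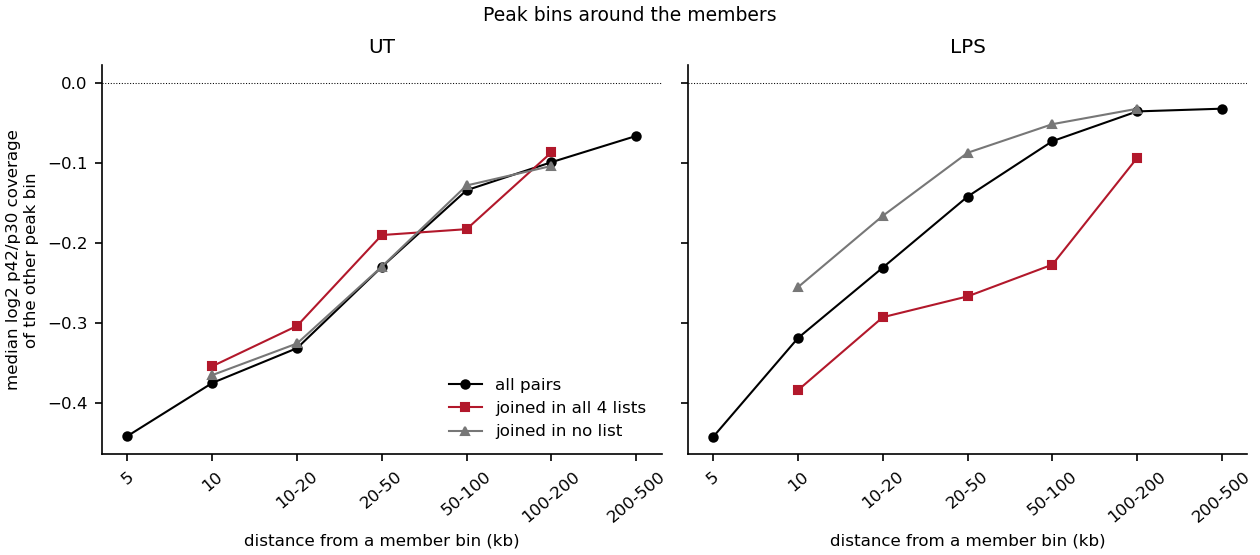
Median centred log2 ratio of p42 over p30 coverage of other peak bins against their distance from a p30-high bin (classes in kb), in UT and after LPS, for all pairs (black), pairs joined in all 4 lists (red) and pairs joined in no list (grey). The black line climbs from -0.44 at 5 kb in both panels, and the red line lies under the grey one at each distance plotted after LPS but not in UT.

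p30-high bins took part in more loops than other peak bins in the p30 lists and in fewer in the p42 lists. The mean was 5.53 loops per p30-high bin against 4.19 per other peak bin in p30 UT, 6.50 against 7.75 in p42 UT, 6.12 against 4.96 in p30 LPS and 3.34 against 4.24 in p42 LPS. With each list reduced to its 78591 loops of lowest q-value, the means at p30-high bins were 5.42, 3.43, 5.29 and 3.34 in that order. A loop with a p30-high end made up 6.53% and 6.16% of the p30 UT and p30 LPS lists, and 3.93% and 4.01% of the p42 lists. Of the loops found in both p30 lists and no p42 list, 13.1% had a p30-high end, against 1.45% of those found in both p42 lists and no p30 list.

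The 31032 loops called in all 4 lists allow the same pairs of bins to be compared. Of these, 1606 had 1 p30-high end and 201 had 2. Loops with 2 such ends had median contacts of 55 in p30 UT, 46 in p42 UT, 48 in p30 LPS and 31 in p42 LPS, and median centred log2 ratios of -0.62 and -0.60. Loops with 1 such end stood at -0.39 in UT and -0.32 after LPS, and loops with none at 0.025 and 0.031. Contacts were below the median ratio in both treatments at 92.0% of the first kind, 67.2% of the second and 25.6% of the third. After contacts were divided by those FitHiChIP expected from distance and coverage, the medians of loops with any p30-high end were -0.11 and -0.097, closer to 0 than the contacts themselves.

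p30-high bins were less often promoters than other peak bins were. A start site lay in 11.2% of them against 17.6% of all peak bins, and against 23.9% of peak bins weighted to the same GC content. Exons without a start site accounted for 40.5% (43.2% of all), introns for 23.6% (20.5%) and intergenic bins for 24.7% (18.7%). The p42-high bins had a start site in 9.99%, so both sets lay further from promoters, with a median distance of 17.8 kb and 17.9 kb against 12.6 kb for all peak bins. Of the loops with a p30-high end, 26.01% in p30 UT reached a start site at the other end, beside 33.3% of all loops in that list.

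Base composition moved with the ratio. The median GC content was 49.7% in p30-high bins, 46.6% in all peak bins and 44.3% in p42-high bins. From the lowest to the highest of 5 GC classes of equal size, the share of p30-high bins went from 0.894% to 6.72% and the share of p42-high bins from 10.2% to 2.19%. The median ratio of all bins went from 0.19 to -0.19 in UT and from 0.065 to -0.086 after LPS. When ratios were centred within 20 classes of GC content, 814 bins met the rule, of which 640 were among the 1026 (62.4%). The part of GC content in the set was not tested. The 12 strongest start bins and the 10 strongest distal bins all met the rule with that centring, but they were picked for lying furthest past the threshold. Of bins not picked by ratio, 1 of the 5 with most loops and 2 of the 4 list genes met it.

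**Figure D5:**
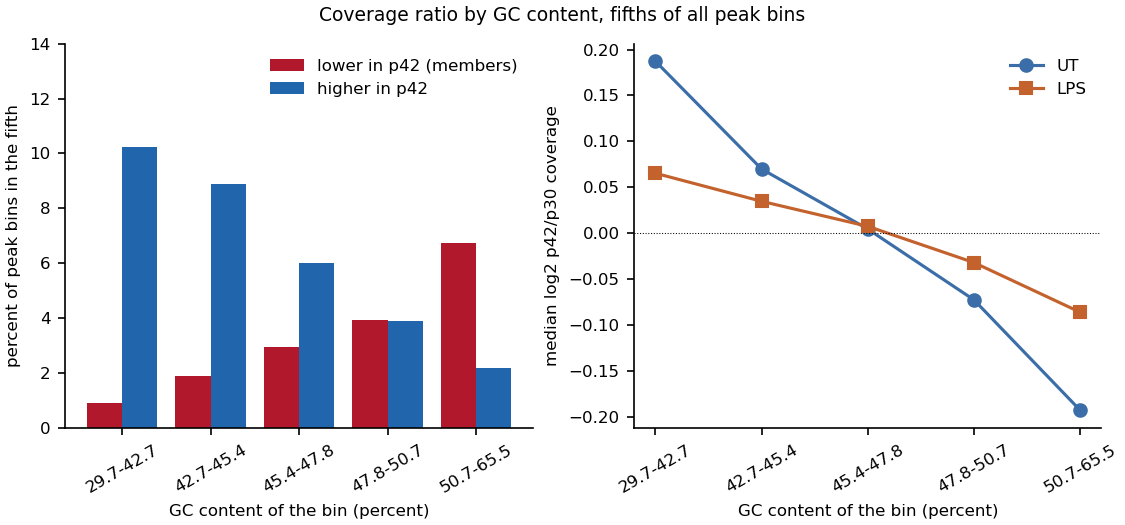
Left, percentage of peak bins in each of 5 equal-sized GC classes that were p30-high (red) or p42-high (blue). Right, median centred log2 ratio of p42 over p30 coverage per class in UT and after LPS, which goes from 0.19 to -0.19 in UT and from 0.065 to -0.086 after LPS as GC content rises.

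Motif matches were counted per kb of sequence and set beside all peak bins weighted to the same GC content. Of 12 motifs longer than a dinucleotide, the PU.1 letters GAGGAAGT, bound by a myeloid and B-cell ETS factor, had the highest ratio, with 0.0955 per kb in p30-high bins against 0.0769 (1.24-fold). The NF-kB letters followed with 0.141 against 0.127 (1.11-fold). The CEBP letters stood at 0.345 against 0.357, AP-1 at 0.296 against 0.286 and the AGATAA letters of GATA factors at 0.453 against 0.448, all close to 1. The CpG dinucleotide was less frequent than in bins of like GC content, at 14.2 against 17.1 per kb (0.831-fold).

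The p30-high bins were spread over the genome unevenly. The share of peak bins was highest among autosomes on chromosome 15, at 5.66% (79 bins), followed by chromosome 4 at 4.24% and chromosome 16 at 4.14%, and lowest on chromosome 1, at 1.83%. The X chromosome held 3 of 233 peak bins. The median ratio of all peak bins also differed, at -0.053 in UT and -0.048 after LPS on chromosome 15 and at 0.076 and 0.087 on chromosome 1. It did not follow the share throughout. Chromosome 16 stood at -0.00075 and 0.039, and chromosome 17, with a share of 2.57%, at -0.086 and 0.0038. The part of such offsets was not tested. Chromosome 15 includes the Grap2, Gramd4, Ly6 and Il2rb runs.

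At some p30-high bins coverage differed between LPS and UT in the same direction in both forms. The change was measured as the centred log2 ratio of LPS over UT within each form, which the rule did not use directly although it comes from the same 4 coverage values. The median over the 1026 bins was -0.057 in p30 and -0.10 in p42, but its sign turned in p30 (0.053) when the rule was applied on the scale of the 25% of bins with most coverage and in p42 (0.054) on that of modelled contacts. A gain of 0.35 or more in both forms was seen at 81 bins (7.89%), beside 2.25% of all peak bins, 1.89% at the same GC content and 3.94% of p42-high bins. A loss of the same size in both forms was seen at 78 bins (7.60%), beside 1.52%, 1.96% and 4.25%. Both shares were higher at p30-high bins than at p42-high bins and lowest over all peak bins.

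The bin with the largest gain in the weaker of both forms lay at chr11:43275001-43280000, 12.2 kb from Mir146, the gene of miR-146a, which damps Toll-like receptor signalling. Its coverage went from 2451 to 5919 in p30 and from 2196 to 3110 in p42, centred changes of 1.38 and 1.10. The Bcl11a bin at 165 kb gained 1.04 and 0.86. Intron or exon bins of Gas7, Itga9, Jade2 and Ubtd2 and a bin joined in all 4 lists to the start of Pim1, a cytokine-induced kinase, were also among the 10 bins with the largest gain. The Pim1 start bin, not p30-high itself at -0.20 and -0.36, gained 0.53 in p30 and 0.37 in p42, with coverages of 11811 and 15795 in p30 and 12414 and 10554 in p42 before and after LPS.

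The start sites of 8 genes lay in p30-high bins with a gain in both forms: Gimap4, Gimap5, Gimap8, Ly6a, Ly6e, Marcksl1, Cldn4 and Adora2a. Ly6a, the gene of the stem cell antigen Sca-1, had a coverage that went from 1756 to 3032 in p30 and from 1474 to 1583 in p42, centred gains of 0.90 and 0.71. Its ratio of p42 over p30 was -0.53 in UT and -0.72 after LPS. The gain of Gimap5 in p42 is relative to the other bins, since its coverage there was 996 before and 988 after LPS while the median peak bin went from 3749 to 2466. Most of the gain of Ly6a in p42 is relative in the same way.

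The start sites of 11 genes lay in p30-high bins with a loss in both forms, among them those of Sox18, an endothelial transcription factor, Zfpm1, H2-Ob, Emid1, Col17a1, P2rx1, an ATP-gated channel of platelets, and Mfng, a Notch-modifying glycosyltransferase. Sox18 had a coverage that went from 5720 to 3381 in p30 and from 4909 to 2125 in p42, changes of -0.65 and -0.61. A bin 10.6 kb from the start of Lfng, another fringe glycosyltransferase, was joined to it in all 4 lists and went from 10200 to 5889 in p30 and from 9541 to 3325 in p42. The largest loss in the weaker of both forms was at a bin of Dnai1 and Enho, at -0.80 and -1.04.

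Genes reached by loops outnumbered genes at the bins. A start site was joined to a p30-high bin in all 4 lists for 347 genes (1.59% of protein-coding genes) and in any list for 1179, and 433 genes were either at such a bin or joined to one in all 4 lists. The start bins of the joined genes that were peak bins but not p30-high (304) had median ratios of -0.044 in UT and -0.23 after LPS, and 51.0% were below 0 in both, against 29.4% of all start sites in peak bins. That comparison was not matched for distance. Peak bins 20 to 50 kb from a p30-high bin and joined to it in no list had medians of -0.23 in UT and -0.087 after LPS. After Gnai2 the genes with most such partners in all 4 lists were Rnf141, Cd81, a tetraspanin, Tspan32, another tetraspanin, and Rab44, a Rab-family GTPase, with 4 each.

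Of the 378 genes in the fixed lists, 10 were joined to a p30-high bin in all 4 lists, beside 1.59% of all protein-coding genes. They were Maff of the small MAF factors, Rela and Tnfaip3 of the NF-kB pathway, Ccnd1 and Cdkn1a of the cell cycle, Runx1 and Tal1 of the stem and progenitor list, Rps14, H2-Eb1 and Zfpm1. Of these 10 start bins, those of H2-Eb1 and Zfpm1 were themselves p30-high, and 3 of the other 8, those of Ccnd1 (-0.47 and -0.035), Maff (-0.19 and -0.41) and Rela (-0.026 and -0.45), were below 0 in both states. That share stands beside 51.0% of all joined start bins that were not p30-high and 29.4% of all start sites in peak bins. Tal1 was at 0.041 and -0.15, Runx1 at 0.25 and -0.033, and Cdkn1a, which encodes the cell cycle inhibitor p21, at 0.34 and 0.11. Tnfaip3 was at 0.29 and -0.065, and Rps14 at 0.13 and -0.18. The granulocyte and monocyte, interferon-stimulated, lymphoid, mast cell and p30-linked lists had 0 genes joined in all 4 lists, which at 1.59% of all genes is near the background for lists of this size.

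Of the 5 p30-high bins with most loops, 4 had UT ratios between -0.38 and -0.36, near the threshold, and the bin in Rab11fip3 stood at -0.67 in UT and -1.01 after LPS. The bin at chr17:29390001-29395000 in an exon of Cpne5 had 25 loops in p30 UT, 37 in p42 UT, 37 in p30 LPS and 27 in p42 LPS and was joined in all 4 lists to the start bins of Cdkn1a, Rab44 and Srsf3. Its coverage was 8204 in p30 UT, 7654 in p42 UT, 9095 in p30 LPS and 4783 in p42 LPS, with ratios of -0.37 and -0.71. Contacts with Cdkn1a numbered 51 in p30 UT, 66 in p42 UT, 62 in p30 LPS and 42 in p42 LPS. Of the other 4, 1 lay next to Plxnd1, a semaphorin receptor (24, 28, 30 and 19 loops in p30 UT, p42 UT, p30 LPS and p42 LPS). Another was intergenic, 68 kb from Smad6, an inhibitor of BMP signalling, with Lctl nearer at 27 kb. It had 27, 30, 22 and 18 loops and was joined to the Smad6 start bin in all 4 lists. The last 2 lay in Myh9, a non-muscle myosin (17, 25, 24 and 21), and in Rab11fip3 (23, 23, 23 and 14). Only 1 of these 5 met the rule when ratios were centred within GC classes.

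The size of the set depended on the scale. With ratios centred on the number of modelled contacts in place of the median bin, all ratios shifted by 0.19 in UT and by -0.35 after LPS, and 849 bins met the rule, of which 399 were among the 1026. Centring on the 25% of bins with most coverage shifted them by -0.13 and 0.12 and gave 950 bins, 662 of them shared. All 12 named start bins and all 10 named distal bins met the rule on each of these scales. They were picked for the strongest ratios and lay further past the threshold than these shifts, so this was fixed by the choice. Of the 4 named genes of the fixed lists, 1 (H2-Ob) met the rule on modelled contacts, 3 on the bins with most coverage and 2 within GC classes. All of these bins kept a centred ratio below 0 in both treatments, as every p30-high bin had to on modelled contacts and on the bins with most coverage.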

How the data were processed

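H3K27ac HiChIP libraries of HPC-7 p30 and p42 cells, untreated or with LPS, were processed by the authors with BWA (version 0.7.17), pairtools and FitHiChIP against mm39, as their processing notes and methods state. The deposited lists give, per loop between 5-kb bins, the contact count, the coverage and peak flag of each bin, the expected count, the expected share of modelled contacts as a fraction and the q-value of the loop, all made by the authors with 1 list per group, taken here to pool both replicates (the pooling is not given in the sources used here); the q-value threshold was 0.01. Of 26 deposited columns, 8 were used. A bin was taken from every loop that holds it, so bins without a loop in a list are absent.

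Coverage ratios were log2 transformed and centred on the median of 31321 bins flagged in all 4 lists (Python 3.11.15, numpy 2.4.6, pandas 2.3.3, scipy 1.17.1; figures with matplotlib 3.10.9). Depth was 14503330 to 18999991 modelled contacts per list. Standard errors cover counting error only. Intervals (95%) treat bins or loops as independent, though neighbouring bins are not, and hold no spread between cultures. Genes came from GENCODE M39 on GRCm39, 1 start site per protein-coding gene. Alternatives changed the centring, threshold, coverage minimum (1000), bin sets, run gap, window and list size. The code was tested on simulated data.

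Members, gene lists and motifs were chosen with earlier results of these data known. Named bins were the 12 start bins and 10 distal bins with the strongest ratio in the weaker treatment, the 6 runs with most bins, list genes at members and the 5 bins with most loops; other genes, such as Gimap8, Gnai2, Ly6a, Sox18, Mir146, Pim1, Lfng and Sit1, were chosen after their values were seen.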

Additional observations from a re-analysis of the deposited data

Results flagged for a closer look

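At 2 of the 1026 p30-high bins (0.195%, against 0.421% of all peak bins) coverage after LPS moved past 0.35 (log2) in opposite directions in the 2 forms, higher in p30 and lower in p42. The bin in an exon of Lmna, the lamin A/C gene, at chr3:88415001-88420000 had a coverage that went from 4989 to 6166 in p30 and from 4465 to 2094 in p42, changes of 0.42 in p30 and -0.49 in p42, so that the change in p42 minus that in p30 was -0.91. The bin in an intron of Uvrag, an autophagy gene, at chr7:98750001-98755000 went from 9592 to 11321 in p30 and from 8773 to 4206 in p42, changes of 0.35 and -0.46 and a difference of -0.81. With 1 list per group the difference was not tested.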

How the results depend on the processing

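No paired analysis was possible because the deposited data hold 1 list per group for replicates 1 and 2, and no replicate could be left out. Over 113 recalculated summary values, 57 stayed, 54 moved and 2 changed sign, judged by a factor of 1.5 for counts of bins, genes and loops per bin and by the counting interval of the reported value for the rest, so some that moved did so by little; the cause was not tested. In the order LPS ratio of bins chosen in UT (as reported -0.18), LPS change in p30 (-0.057), LPS change in p42 (-0.10), start-site share (11.2%), GC content (49.7%), contact ratio in UT (-0.39) and after LPS (-0.35) and share of loops joining 2 p30-high bins (7.78%), centring on modelled contacts gave -0.62, -0.27, 0.054, 6.12%, 50.3%, -0.55, -0.27 and 9.24%, and centring on the 25% of bins with most coverage gave -0.014, 0.053, -0.15, 14.3%, 49.1%, -0.35, -0.38 and 5.87%. The direction of the LPS change thus turned in p42 on the first scale and in p30 on the second. Centring within GC classes gave an LPS change in p30 of -0.030, a start-site share of 6.02%, a GC content of 46.3%, 5.76% of loops joining 2 and 64.4% of bins in runs (as reported 67.8%). Within coverage classes the LPS ratio of UT bins was -0.26 and the UT contact ratio -0.35, and with coverage of at least 1000 the former was -0.19. At a threshold of -0.25 there were 2101 bins, with an LPS ratio of UT bins of -0.14, an LPS change in p42 of -0.079, a start-site share of 13.4%, contact ratios of -0.33 and -0.29, 11.2% of loops joining 2 and 77.0% in runs. At -0.5 there were 301, with -0.24, -0.14, contact ratios of -0.55 and -0.45, 2.57% and 47.2%. With 1 bin per run of adjacent peak bins there were 453, with an LPS ratio of -0.14, an LPS change in p30 of -0.034, a GC content of 48.8%, a UT contact ratio of -0.44, 2.51% of loops joining 2 and 26.3% in runs. Lists of equal size gave 3.43 loops per bin in p42 UT (6.50 as deposited) and 8.29% of loops joining 2, or 7.38% where bins were redefined. Run gaps of 25 and 100 kb put 64.4% and 72.3% of bins in runs. Within 100 kb in place of 500 kb, neighbouring peak bins that were not p30-high stood at -0.15 in UT and -0.085 after LPS (-0.060 and -0.025 within 500 kb). Non-peak bins stood at -0.060 and -0.080 (-0.034 and -0.038). With the start sites of all transcripts, 254 genes lay at p30-high bins in place of 119. Leaving out the sex chromosomes moved none of the 10 values recalculated. Counting error limits single bins little, since 1 of 1026 had a standard error above 0.1 (log2); the spread between cultures is unknown.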
